A study of Mus musculus with 6 samples.

Results

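The genes examined were 10 members of the nutrient-sensing network of the cell, which were taken by symbol from the 33696 genes of the count matrices. They were Mtor, Rptor, Deptor, Prkaa1, Prkaa2, Sesn1, Sesn3, Sirt1, Sirt3 and Tfeb. Each symbol matched 1 row of the matrices, and the rule itself uses the symbols alone. Single-nucleus RNA sequencing had been done on left ventricles of 12-week-old male mice, with 2 libraries in each of 3 groups. WT-CD mice were wild-type littermates fed control diet. R403Q-CD mice, labelled Myh6+/R404Q (R403Q), were heterozygous for the R403Q mutation of the cardiac myosin heavy chain, which models hypertrophic cardiomyopathy, and were fed the same diet. R403Q-EMPA mice had the same genotype and received empagliflozin (EMPA), which inhibits the sodium-glucose cotransporter SGLT2, mixed into that diet at 0.15 mg/g, or about 15 mg/kg. Feeding started when the mice were 9 to 10 weeks old. Since the labels give a treatment longer than the stated ages allow, its length is not settled here. No source says whether a library came from 1 animal or from a pool, so p-values measure the spread between libraries.

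The network couples growth to the supply of fuel and amino acids. The kinase mTOR, held by raptor in mTOR complex 1, drives protein synthesis and restrains autophagy when nutrients are plentiful, and DEPTOR and the sestrins act to restrain it. AMPK, whose catalytic alpha subunits are the products of Prkaa1 and Prkaa2, is switched on when ATP is short and turns synthesis down and fuel oxidation up, the NAD-dependent deacetylases SIRT1 and SIRT3 act in the nucleus and in mitochondria, and TFEB, held in the cytoplasm by active mTOR complex 1, drives lysosomal and autophagy genes.

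Of 69249 barcodes, 46005 nuclei were kept, 6409 to 9514 per library, at median depths of 2663 to 4065 UMIs (unique molecular identifiers, each counting 1 captured RNA molecule). The nuclei fell into 26 clusters, of which 25 were assigned to 11 classes by marker genes and are called "-like", and 10 classes had at least 20 nuclei in every library and were tested. The cardiomyocyte-like class held 10.6% ± 1.75 (SD, n = 2) of the WT-CD nuclei, 13.5% ± 0.889 of the R403Q-CD nuclei and 22.3% ± 3.88 of the R403Q-EMPA nuclei. The mitochondrial filter, which leaves out nuclei with over 5% mitochondrial UMIs, took between 18.9% and 21.99% of the nuclei of WT-CD libraries, 27.2% and 32.9% of those of R403Q-CD and 34.4% and 39.0% of those of R403Q-EMPA. Without it the cardiomyocyte-like class held 10.9% and 14.9%, 30.4% and 33.4%, and 35.4% and 27.3% of the nuclei in these groups, and the part of this sign of RNA quality in the results was not tested beyond the values without the filter. No cluster of fat cells was found, although the labels list epicardial fat, and 1 cluster of 39 nuclei led by haemoglobin genes stayed unnamed. No pair of replicates agreed within sampling noise (chi-square over its degrees of freedom, 7.83 to 50.5), so each library was counted on its own, and pairs of libraries shared 23 to 56 barcode sequences. Over all kept nuclei the members gave between 6180 UMIs (Prkaa1) and 55871 UMIs (Sesn1). Levels are given as CPM, the UMIs of a gene per 1000000 UMIs of a class in a library, which were compared between classes and groups but not between genes, since UMIs were not corrected for gene length.

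The members differed widely in how evenly the classes shared them. Mean CPM over the 6 libraries differed between the highest and the lowest class by 63.1-fold for Prkaa2, 29.9-fold for Deptor, 15.8-fold for Sesn3 and 6.92-fold for Sirt3, and by 1.27-fold for Mtor and 1.43-fold for Rptor. Prkaa2, Sesn1 and Sirt3 were highest in cardiomyocyte-like nuclei in 6 of 6 libraries. Deptor, Prkaa1 and Sesn3 were lowest there by mean CPM. Counted as UMIs per 1000 nuclei they were not lowest there. Deptor stood at 71.5 against 39.5 in lymphatic endothelial-like nuclei. Prkaa1 stood at 105 against 93.7 in smooth muscle-like nuclei, and Sesn3 at 133 against 59.2 in endothelial-like nuclei. The members had been left out of the genes used for clustering, and these levels are a description with no test. The plot of levels by class shows all 6 libraries of each member.

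**Figure D1:**
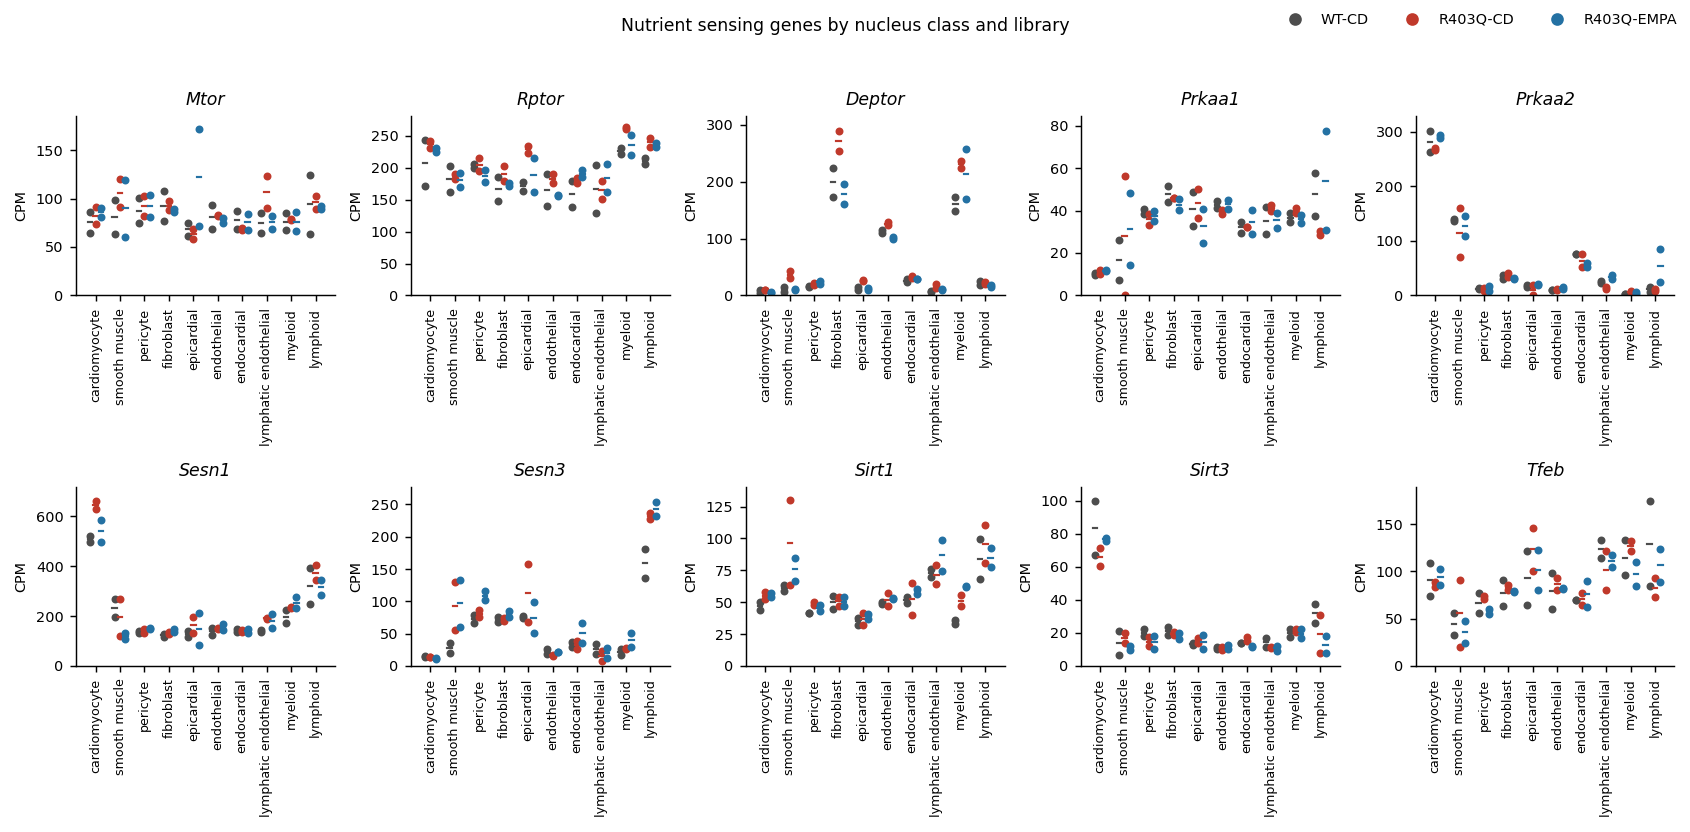
CPM (vertical axes, from 0) of each of the 10 members in each of the 10 tested classes, 1 point per library coloured by group, with bars at group means. Prkaa2, Sesn1 and Sirt3 are highest in cardiomyocyte-like nuclei, Deptor in fibroblast-like and myeloid-like nuclei and Sesn3 in lymphoid-like nuclei, while Mtor and Rptor vary little between classes.

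The genes of the AMPK alpha subunits stood at opposite ends in cardiomyocyte-like nuclei by mean CPM. Prkaa2 (ENSMUSG00000028518), which encodes alpha 2, stood in cardiomyocyte-like nuclei at 263 and 301 CPM in WT-CD, 267 and 269.9 CPM in R403Q-CD and 294 and 288 CPM in R403Q-EMPA. Its mean there of 280.4 CPM was 2.20-fold that of smooth muscle-like nuclei (127 CPM), and the libraries of these classes did not overlap. Endocardial-like nuclei followed at 65.4 CPM, overlapping with smooth muscle-like nuclei, and fibroblast-like nuclei at 34.1 CPM, and below them the ranges of neighbouring classes overlapped down to endothelial-like nuclei at 11.6 CPM, with myeloid-like nuclei lowest at 4.44 CPM. Of all Prkaa2 UMIs in the kept nuclei, 83.8% came from cardiomyocyte-like nuclei. Prkaa1 (ENSMUSG00000050697), which encodes alpha 1, was lowest in cardiomyocyte-like nuclei, at 10.4 and 9.69 CPM in WT-CD, 11.9 and 9.93 CPM in R403Q-CD and 11.5 and 11.9 CPM in R403Q-EMPA. The means of the other classes lay between 25.4 CPM in smooth muscle-like and 45.5 CPM in fibroblast-like nuclei, and the ranges of all neighbours overlapped, so that their order is not resolved. Smooth muscle-like nuclei, with 20 Prkaa1 UMIs in all, also overlapped with cardiomyocyte-like nuclei. Counted per 1000 nuclei, Prkaa1 gave 105 UMIs in cardiomyocyte-like nuclei, between 93.7 in smooth muscle-like and 107 in pericyte-like nuclei.

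Of the UMIs of both alpha genes, Prkaa2 gave 96.3% ± 0.390 (SD, n = 6) in cardiomyocyte-like, 66.1% ± 5.63 in endocardial-like, 42.7% ± 2.46 in fibroblast-like and 21.6% ± 3.52 in endothelial-like nuclei. This share compares classes and is no ratio of transcripts, because the gene lengths differ. RNA set free from broken cells can add UMIs to every droplet. The 10 cardiomyocyte markers together reached, in the same library, 1.89% to 3.19% of their cardiomyocyte-like level in fibroblast-like nuclei, 1.90% to 4.11% in endocardial-like, 2.65% to 4.66% in endothelial-like and 5.97% to 7.68% in smooth muscle-like nuclei. Prkaa2 reached 10.3% to 15.3% of its cardiomyocyte-like level in fibroblast-like, 18.1% to 29.0% in endocardial-like and 26.0% to 60.0% in smooth muscle-like nuclei, above the summed markers in each. The highest single marker of each library lay above Prkaa2 in fibroblast-like (21.6% to 29.3%) and smooth muscle-like nuclei (66.1% to 98.8%), and its range overlapped that of Prkaa2 in endocardial-like nuclei (21.5% to 36.7%). In endothelial-like nuclei Prkaa2 reached 3.44% to 5.56%, a range that overlaps that of the summed markers, and in myeloid-like nuclei 0.586% to 2.70%, below their 2.92% to 4.61%. The part of free RNA in these levels was not tested.

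The promoters of the alpha genes are shown because cardiomyocyte-like nuclei were highest for Prkaa2 and lowest for Prkaa1 in CPM. They are the 250 bases before the start site in RefSeq on build GRCm38.p6, read 5′ to 3′ on the strand of the gene, with GC boxes (GGGCGG on either strand) in capitals. That of Prkaa1 spans chr15:5143611-5143860 on the plus strand and that of Prkaa2 chr4:105109899-105110148 on the minus strand.
Prkaa1: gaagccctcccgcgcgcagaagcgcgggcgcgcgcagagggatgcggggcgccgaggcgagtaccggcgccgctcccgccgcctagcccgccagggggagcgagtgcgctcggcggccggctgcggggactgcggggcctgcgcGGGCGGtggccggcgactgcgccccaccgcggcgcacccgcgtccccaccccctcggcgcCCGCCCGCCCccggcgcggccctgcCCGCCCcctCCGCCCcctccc
Prkaa2: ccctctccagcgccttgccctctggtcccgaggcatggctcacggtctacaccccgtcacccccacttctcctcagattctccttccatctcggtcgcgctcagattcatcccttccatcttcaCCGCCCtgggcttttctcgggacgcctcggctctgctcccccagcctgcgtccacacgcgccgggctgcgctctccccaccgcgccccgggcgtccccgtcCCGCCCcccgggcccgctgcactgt
G and C made up 85.2% of the bases of the former and 70.0% of the latter. The table held windows of 300 bases, from 250 before to 50 after a start site, for 9 of the 10 members (13 start sites). Of 32851 such windows, 35.7% held a GC box, and 11 of the 13 did. The MEF2 site lay in 3.69% of all windows and 0 of the 13, and TCAAGGTCA, the oestrogen-related receptor site, in 0.423% and 0 of the 13. GTAAACA, the FoxO site, lay in 3.65% of all and in 1 of the 13, a Sesn1 window. CACGTG lay in 7.15% and 1 of the 13, that of Sirt1, and the GATA site AGATAA was found in 11.2% and 1 of the 13, that of Sesn3. All were searched on both strands.

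The sestrins also divided the classes. Sesn1 (ENSMUSG00000038332), whose product restrains mTOR complex 1 through the amino acid sensing arm, averaged 567 CPM in cardiomyocyte-like nuclei and did not overlap with the next class, lymphoid-like nuclei at 337 CPM. Myeloid-like nuclei followed at 229 CPM, and from smooth muscle-like nuclei (183 CPM) down to fibroblast-like nuclei (133 CPM) neighbouring ranges overlapped. Sesn3 (ENSMUSG00000032009), a relative also known as a target of FoxO factors, averaged 211 CPM in lymphoid-like nuclei, with libraries from 137 to 255 CPM, 88.2 CPM in epicardial-like, 87.3 CPM in pericyte-like and 74.9 CPM in fibroblast-like nuclei. It was lowest in cardiomyocyte-like nuclei, at 13.4 CPM, with libraries from 10.2 to 15.5 CPM. Relative to fibroblast-like nuclei of the same library, log2 CPM in cardiomyocyte-like nuclei was 2.09 ± 0.21 (SD, n = 6) higher for Sesn1 and differed by −2.49 ± 0.29 for Sesn3.

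Of the sirtuins, Sirt3 (ENSMUSG00000025486), the mitochondrial deacetylase, averaged 75.3 CPM in cardiomyocyte-like nuclei. Its libraries there stood at 99.7 and 66.9 CPM in WT-CD, 71.3 and 60.5 CPM in R403Q-CD and 77.6 and 75.5 CPM in R403Q-EMPA. WT-CD replicate 1 was the highest of the 6. All other classes averaged between 10.9 and 21.3 CPM, and none of their libraries reached the lowest cardiomyocyte-like value. Sirt1 (ENSMUSG00000020063), the nuclear deacetylase, was spread more evenly, from 36.9 CPM in epicardial-like to 88.3 CPM in lymphoid-like nuclei, with cardiomyocyte-like nuclei at 52.5 CPM and fibroblast-like nuclei at 50.3 CPM. Every pair of neighbours in this order overlapped in range. Within libraries, lymphatic endothelial-like nuclei lay above endocardial-like nuclei, and pericyte-like above epicardial-like nuclei, in 6 of 6. The other pairs were in this order in 1 to 5 libraries.

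The mTOR complex genes Mtor (ENSMUSG00000028991), the kinase itself, and Rptor (ENSMUSG00000025583), which encodes raptor, were the most even members in CPM. Class means ran from 73.9 to 93.6 CPM for Mtor and from 169 to 241 CPM for Rptor, and all neighbouring classes overlapped. Counted as UMIs per nucleus, both were highest in cardiomyocyte-like nuclei, where the log2 ratio to fibroblast-like nuclei was 1.17 for Mtor and 1.68 for Rptor, in place of −0.17 and 0.33 in CPM. For Prkaa2, Sesn1, Sirt3, Deptor, Prkaa1 and Sesn3 this ratio had the same sign on both scales. Tfeb (ENSMUSG00000023990) ran from 45.4 CPM in smooth muscle-like to 113 CPM in myeloid-like nuclei, again with overlap between all neighbours. Deptor (ENSMUSG00000022419), an inhibitor of mTOR, differed widely between classes. It averaged 216 CPM in fibroblast-like nuclei, 202 CPM in myeloid-like and 113 CPM in endothelial-like nuclei, and the last did not overlap with the first pair or with endocardial-like nuclei at 29.2 CPM. Cardiomyocyte-like nuclei were lowest, at 8.83 and 5.19 CPM in WT-CD, 9.44 and 10.0 CPM in R403Q-CD and 5.69 and 4.16 CPM in R403Q-EMPA. These were 2.12% to 5.11% of the fibroblast-like level of the same library, beside 0.977% to 2.09% for the 10 fibroblast markers together and 1.65% to 3.19% for the highest single marker of each library, and the part of RNA from other classes in these low counts was not tested. In the few Schwann-like nuclei, 3 to 22 per library and too few to test, Deptor stood between 899 and 1850 CPM on 13 to 122 UMIs.

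No member passed the test for a difference between the 3 groups in any class. UMIs were summed per library and class and tested with edgeR's quasi-likelihood test over all genes, with Benjamini-Hochberg adjustment within a class and comparison. The members passed the filter on low counts in 85 of 100 combinations of member and class, all 10 in cardiomyocyte-like, fibroblast-like, endothelial-like, endocardial-like and pericyte-like nuclei and between 5 and 9 in the other classes. At an adjusted p under 0.05, 0 of these 85 passed in R403Q-CD against WT-CD, where 0.0171% of all gene tests in the 10 classes did. The count was 0 of 85 in R403Q-EMPA against R403Q-CD (0.345% of all gene tests) and 0 of 85 in R403Q-EMPA against WT-CD (1.4%), and DESeq2 also called 0 in each. At an unadjusted p under 0.05 the counts were 4, 7 and 7, which are 4.71%, 8.24% and 8.24% of the member tests beside 4.3%, 9.79% and 12.7% of all gene tests.

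A weaker mark is that both libraries of a group lie on the same side of both of the other. In R403Q-CD against WT-CD this held for 25 of 85 member tests (29.4%, beside 31.6% of all gene tests), of which 19 were higher and 6 lower in R403Q-CD where all genes split into 16.1% higher and 15.5% lower. In R403Q-EMPA against R403Q-CD it held for 35 (41.2%, beside 45.1%), 13 higher and 22 lower, where all genes split into 25.3% and 19.8%. In R403Q-EMPA against WT-CD it held for 27 (31.8%, beside 40.1%), 21 higher and 6 lower, beside 21.7% and 18.4%. None of the 3 totals exceeded the share over all genes. By direction the members split less evenly than all genes in each comparison, which was not tested. Tests of the same member in different classes share libraries and are not independent. The plot of log2 fold changes shows all members in the 3 largest classes.

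**Figure D2:**
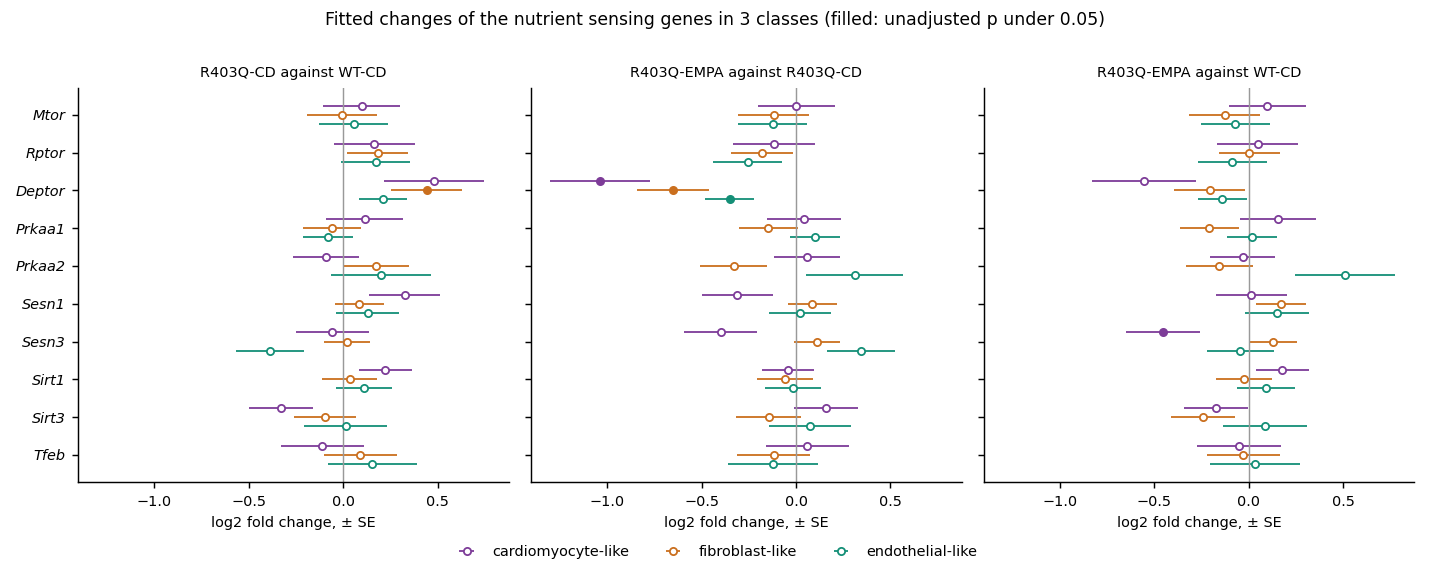
Log2 fold change (horizontal axis) with its SE for the 10 members in cardiomyocyte-like, fibroblast-like and endothelial-like nuclei, 1 panel per comparison, with filled points at an unadjusted p under 0.05. Deptor lies above 0 in all 3 classes in R403Q-CD against WT-CD and below 0 in R403Q-EMPA against R403Q-CD, where it reaches −1.04 in cardiomyocyte-like nuclei.

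The effect of the mutation is read from R403Q-CD against WT-CD. In cardiomyocyte-like nuclei, Sesn1 stood at 499 and 523 CPM in WT-CD and at 663 and 631 CPM in R403Q-CD. Both mutant libraries were above both wild-type libraries, and the log2 fold change was 0.32 (SE 0.19, adjusted p 0.845 by edgeR's quasi-likelihood test). It ran from 0.20 to 0.47 with a library left out. Sirt1 stood at 50.4 and 43.6 CPM in WT-CD and 52.3 and 57.9 CPM in R403Q-CD (log2 fold change 0.22, SE 0.14, adjusted p 0.868). For Deptor, at the low cardiomyocyte-like levels given above, the log2 fold change was 0.48 (SE 0.27, adjusted p 0.828), and it ran from 0.24 to 0.80 with a library left out. Without the mitochondrial filter these log2 fold changes were 0.11 for Sesn1, 0.034 for Sirt1 and 0.73 for Deptor. The other 7 members overlapped between these groups, among them Prkaa2 (log2 fold change −0.09, SE 0.17) and Sirt3 (−0.33, SE 0.17).

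In fibroblast-like nuclei Deptor stood at 173 and 225 CPM in WT-CD and at 289 and 254 CPM in R403Q-CD. The groups did not overlap, the log2 fold change was 0.44 (SE 0.19) and the adjusted p by edgeR's quasi-likelihood test was 1.00. With a library left out the log2 fold change ran from 0.22 to 0.71. All 9 other members overlapped there. In endothelial-like nuclei Deptor stood at 109 and 114 CPM in WT-CD and 123 and 128 CPM in R403Q-CD (log2 fold change 0.21, SE 0.13, adjusted p 1.00). Lower in R403Q-CD were Sesn3, at 26.5 and 19.1 CPM against 16.1 and 17.2 CPM (log2 fold change −0.39, SE 0.18, adjusted p 1.00), and Prkaa1, at 44.3 and 41.2 CPM against 40.0 and 38.4 CPM (−0.08, SE 0.13, adjusted p 1.00). With a library left out the endothelial-like values ran from 0.11 to 0.32 for Deptor, from −0.55 to −0.23 for Sesn3 and from −0.11 to −0.052 for Prkaa1.

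Myeloid-like nuclei gave 2 of the 4 tests with an unadjusted p under 0.05 in this comparison. Sirt1 stood there at 35.8 and 32.6 CPM in WT-CD and 55.7 and 46.7 CPM in R403Q-CD, and the log2 fold change was 0.55 (SE 0.22, adjusted p 0.995). Deptor stood at 174 and 149 CPM and at 237 and 223 CPM (log2 fold change 0.48, SE 0.20, adjusted p 0.995). The last of the 4 tests was Sesn3 in smooth muscle-like nuclei, at 35.3 and 19.6 CPM against 130.3 and 56.2 CPM (log2 fold change 1.64, SE 0.69, adjusted p 0.871), which rests on 3 to 13 UMIs per library and ran from 0.97 to 2.19 with a library left out.

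The effect of the drug on mutant hearts is read from R403Q-EMPA against R403Q-CD. Deptor gave the smallest adjusted p. In fibroblast-like nuclei, R403Q-EMPA libraries stood at 160.0 and 196 CPM, below the R403Q-CD libraries at 289 and 254 CPM while 1 of them lay below both WT-CD libraries and 1 between them, and the log2 fold change was −0.65 (SE 0.19, adjusted p 0.212). In cardiomyocyte-like nuclei the log2 fold change was −1.04 (SE 0.26, adjusted p 0.151 by edgeR), on 81 and 48 UMIs in R403Q-EMPA and 95 and 117 UMIs in R403Q-CD. In endothelial-like nuclei R403Q-EMPA stood at 103 and 98.7 CPM, below 123 and 128 CPM (log2 fold change −0.35, SE 0.13, adjusted p 0.432). Myeloid-like nuclei did not share this: R403Q-EMPA libraries stood at 169.7 and 257 CPM, on either side of R403Q-CD.

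The direction of these Deptor differences held under 13 of 13 alternative settings in each of the 3 classes. In fibroblast-like nuclei the adjusted p ran from 0.00236 without a filter on low counts to 0.888, and in cardiomyocyte-like nuclei from 0.0112, again without the filter, to 0.621, so the call was made in 1 of 13 settings each. In endothelial-like nuclei it ran from 0.131 to 1.00. Leaving out single libraries moved the fibroblast-like log2 fold change between −0.82 and −0.49, and the cardiomyocyte-like one between −1.25 and −0.86. Without the filter on low counts, 4.03% of all genes were called in fibroblast-like and 2.8% in cardiomyocyte-like nuclei in this comparison.

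R403Q-CD thus lay above both other groups for Deptor in 4 of the 6 classes where it was tested, namely fibroblast-like, cardiomyocyte-like, endothelial-like and endocardial-like nuclei. In these classes the same held for 5.79%, 5.13%, 4.2% and 5.36% of all tested genes, and 0.128% (12 of 9393) of the genes tested in all 6 classes met it in at least 4. This pattern was picked out after the values were seen, the classes come from the same 6 libraries, and no test was made of it. In the 3 cardiomyocyte-like clusters, Deptor overlapped between R403Q-CD and WT-CD. In the 6 fibroblast-like clusters its mean was highest in R403Q-CD. The gene was followed into these clusters for its class values, the clusters hold the same 6 libraries, and how many other genes do the same was not counted. In the largest of them, cluster 3, WT-CD stood at 212 and 270.1 CPM, R403Q-CD at 341 and 316 CPM and R403Q-EMPA at 215 and 233 CPM. R403Q-EMPA replicate 1 stood apart in its make-up, with 22.3% of its fibroblast-like nuclei in cluster 4, where other libraries had 0.840% to 4.83%, and 12.2% in cluster 3, where the others had 35.6% to 41.6%.

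**Figure D3:**
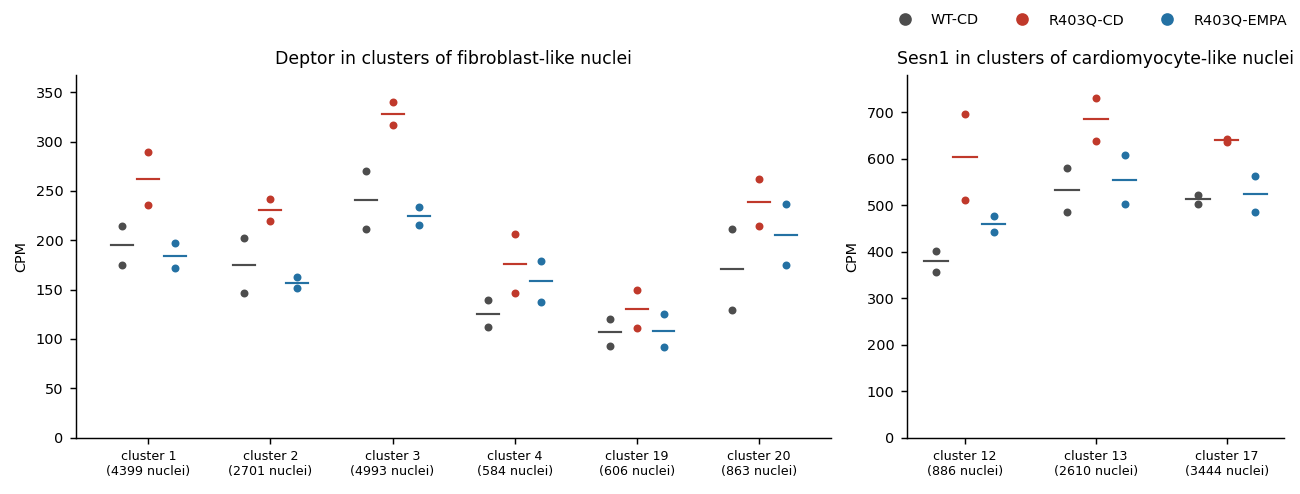
CPM (vertical axis, from 0) of Deptor in the 6 fibroblast-like clusters and of Sesn1 in the 3 cardiomyocyte-like clusters, 1 point per library, with bars at group means and the nuclei of each cluster under its name. The R403Q-CD mean is the highest in every cluster shown.

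Sesn1 in cardiomyocyte-like nuclei was also highest in R403Q-CD, with WT-CD and R403Q-EMPA overlapping. R403Q-EMPA stood at 499 and 585 CPM, below 663 and 631 CPM in R403Q-CD, and the log2 fold change was −0.31 (SE 0.19, adjusted p 0.529 by edgeR's quasi-likelihood test, and −0.19 without the mitochondrial filter). It ran from −0.47 to −0.17 with a library left out. In the 3 cardiomyocyte-like clusters the mean of Sesn1 was highest in R403Q-CD, which is a description with the same limits as for Deptor. The share of these clusters differed between the groups. Cluster 17 held 83.4% and 84.2% of the cardiomyocyte-like nuclei in the WT-CD libraries, 67.9% and 50.6% in the R403Q-CD libraries and 15.9% and 31.5% in the R403Q-EMPA libraries, so class values mix unlike proportions of clusters, which the values within a cluster do not.

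For the other members, cardiomyocyte-like nuclei in R403Q-EMPA against R403Q-CD showed Sesn3 lower, at 12.3 and 10.2 CPM against 14.2 and 14.3 CPM (log2 fold change −0.40, SE 0.19, adjusted p 0.431). Sirt3 was higher, at 77.6 and 75.5 CPM against 71.3 and 60.5 CPM (0.16, SE 0.17, adjusted p 0.747, and 0.026 to 0.30 with a library left out), and Prkaa2 was higher by a small margin (0.06, SE 0.17, adjusted p 0.924). Rptor was lower, at 230.5 and 224 CPM against 242 and 231 CPM (−0.12, SE 0.21, adjusted p 0.863, and −0.0085 without the mitochondrial filter). In fibroblast-like nuclei Prkaa2 stood at 30.2 and 31.9 CPM against 34.4 and 41.3 CPM (−0.33, SE 0.18, adjusted p 0.464). There Prkaa1 (−0.15), Rptor (−0.18) and Tfeb (−0.12) were lower without overlap and Sesn1 (0.09) and Sesn3 (0.11) higher. With a library left out these ran from −0.26 to −0.040 for Prkaa1, from −0.28 to −0.077 for Rptor and from −0.17 to −0.064 for Tfeb. They ran from 0.046 to 0.12 for Sesn1 and from 0.037 to 0.18 for Sesn3, and Prkaa2 ran from −0.45 to −0.20. In endothelial-like nuclei Sesn3 was higher (0.34, SE 0.18, adjusted p 0.599) and Prkaa1 as well (0.10, SE 0.13), while Rptor (−0.26, SE 0.18) and Mtor (−0.12, SE 0.18) were lower.

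In the smaller classes, 4 tests of this comparison had an unadjusted p under 0.05. Sesn3 in pericyte-like nuclei stood at 86.7 and 75.2 CPM in R403Q-CD and 116 and 102 CPM in R403Q-EMPA (log2 fold change 0.40, SE 0.16, adjusted p 0.465). In endocardial-like nuclei it stood at 39.3 and 25.5 CPM and at 66.2 and 35.6 CPM, which overlapped (0.70, SE 0.30, adjusted p 0.415, and 0.17 to 1.043 with a library left out). Prkaa2 in lymphatic endothelial-like nuclei stood at 11.6 and 16.4 CPM and at 37.7 and 30.03 CPM (1.27, SE 0.43, adjusted p 0.681), on 6 to 33 UMIs per library. Its WT-CD libraries lay between, at 26.5 and 23.2 CPM. Mtor in epicardial-like nuclei stood at 58.4 and 68.6 CPM and at 172 and 71.2 CPM, on 7 to 28 UMIs per library, and R403Q-EMPA replicate 1 was far above the rest (1.00, SE 0.47, adjusted p 0.644, and 0.13 to 1.40 with a library left out).

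R403Q-EMPA against WT-CD shows what set treated mutants apart from wild type, and it shares its libraries with the comparisons above. The smallest adjusted p of any member in a class was that of Sesn3 in pericyte-like nuclei. WT-CD libraries stood at 78.5 and 65.8 CPM and R403Q-EMPA libraries at 116 and 102 CPM, and the log2 fold change was 0.58 (SE 0.16, adjusted p 0.0990). Over 13 alternative settings the adjusted p ran from 0.0497 to 0.495, and the call was made in 1, without WT-CD replicate 1, at a log2 fold change of 0.66. Sesn3 was also higher in myeloid-like nuclei, at 30.04 and 51.4 CPM against 26.3 and 17.6 CPM (0.73, SE 0.33, adjusted p 0.448, and 0.35 to 1.17 with a library left out), and in smooth muscle-like nuclei, at 134 and 60.6 CPM against 35.3 and 19.6 CPM (1.90, SE 0.66, adjusted p 0.483, and 1.10 to 2.34 with a library left out). In cardiomyocyte-like nuclei it was lower, at 12.3 and 10.2 CPM against 13.9 and 15.5 CPM (−0.46, SE 0.20, adjusted p 0.239 by edgeR, and −0.62 to −0.26 with a library left out).

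Sirt1 in myeloid-like nuclei stood at 62.9 and 62.0 CPM in R403Q-EMPA, above R403Q-CD at 55.7 and 46.7 CPM and WT-CD at 35.8 and 32.6 CPM. Against WT-CD the log2 fold change was 0.81 (SE 0.23, adjusted p 0.185), on 37 to 90 UMIs per library. Its adjusted p ran from 0.118 to 0.655 over 13 alternative settings, all in the same direction. Prkaa2 in endocardial-like nuclei was lower, at 53.1 and 59.9 CPM against 76.1 and 75.7 CPM (−0.46, SE 0.20, adjusted p 0.302), and Sesn1 in smooth muscle-like nuclei as well, at 134 and 109 CPM against 198 and 268 CPM (−0.92, SE 0.41, adjusted p 0.678). In the 3 largest classes the groups were also apart for Sirt1 (0.18) and Prkaa1 (0.15) in cardiomyocyte-like nuclei, Sesn1 (0.17) and Sesn3 (0.13) in fibroblast-like nuclei, and Prkaa2 (0.51), Sirt1 (0.09) and Deptor (−0.14) in endothelial-like nuclei, with adjusted p from 0.473 to 0.873 by edgeR. With a library left out the endothelial-like values ran from 0.17 to 0.69 for Prkaa2, from −0.25 to −0.032 for Deptor and from −0.014 to 0.20 for Sirt1, whose direction turned without WT-CD replicate 1. The 10 cardiomyocyte markers moved with Prkaa2 there, at a summed 2247 and 1737 CPM in WT-CD and 2949 and 2888 CPM in R403Q-EMPA endothelial-like nuclei, and their part in this difference was not tested.

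For Mtor, Rptor and Tfeb the WT-CD libraries often lay at opposite ends. WT-CD replicate 1 was the lowest of the 6 libraries in 6 of 10 classes for Mtor and for Rptor and in 4 of 9 for Tfeb. WT-CD replicate 2 was the highest in 4 of 10, 3 of 10 and 7 of 9. In fibroblast-like nuclei Rptor stood at 148.4 and 186 CPM in WT-CD, 202 and 179 CPM in R403Q-CD and 176 and 171 CPM in R403Q-EMPA, and Tfeb at 63.1 and 91.3, 85.2 and 80.1, and 79.0 and 78.0 CPM. For both genes the WT-CD libraries were the furthest apart. This order of libraries was noticed after the values were seen.

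Over all nuclei of a library, where fewer cells of a type and less RNA per cell cannot be told apart, the members were tested in the same way. Of 10 members tested, 0 passed at an adjusted p under 0.05 in R403Q-CD against WT-CD (0% of all 19024 genes), 0 in R403Q-EMPA against R403Q-CD (0.0736%) and 0 in R403Q-EMPA against WT-CD (4.6%). At an unadjusted p under 0.05 the counts were 0, 3 and 3, beside 4.54%, 13.6% and 21.5% of all genes. Prkaa2 stood at 89.7 and 96.4 CPM in WT-CD, 99.1 and 107 CPM in R403Q-CD and 128 and 155 CPM in R403Q-EMPA. Against WT-CD this gave 0.69 on the log2 scale (SE 0.16, adjusted p 0.0616 by edgeR), and against R403Q-CD 0.50 (SE 0.16, adjusted p 0.246). Deptor stood at 91.6 and 109 CPM in WT-CD, 127 and 109 CPM in R403Q-CD and 69.2 and 67.1 CPM in R403Q-EMPA, or −0.49 on the log2 scale (SE 0.16, adjusted p 0.139) from WT-CD and −0.75 (SE 0.16, adjusted p 0.123) from R403Q-CD. Sesn1 against WT-CD gave 0.56 (SE 0.18, adjusted p 0.135 by edgeR) and Sirt3 against R403Q-CD 0.43 (SE 0.17, adjusted p 0.328). With a library left out the values against WT-CD ran from 0.48 to 0.86 for Prkaa2, from −0.67 to −0.28 for Deptor and from 0.31 to 0.77 for Sesn1. Those against R403Q-CD ran from 0.30 to 0.67 for Prkaa2, from −0.86 to −0.63 for Deptor and from 0.29 to 0.55 for Sirt3.

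Prkaa2, Sesn1 and Sirt3 are the members that were highest in cardiomyocyte-like nuclei, and Deptor was lowest there. Cardiomyocyte-like nuclei gave 25.9% ± 1.26 (SD, n = 2) of all WT-CD UMIs, 31.7% ± 0.847 of those in R403Q-CD and 43.5% ± 7.64 of those in R403Q-EMPA, and fibroblast-like nuclei 33.6% ± 2.21, 27.3% ± 1.95 and 20.2% ± 1.42. To see the level without this, each library's class CPM were weighted by the mean class shares of all 6 libraries. The log2 ratio of group means of R403Q-EMPA to WT-CD then went from 0.60 to 0.03 for Prkaa2, from 0.47 to 0.12 for Sesn1, from 0.25 to −0.14 for Sirt3 and from −0.56 to −0.10 for Deptor. For Deptor in R403Q-EMPA against R403Q-CD it went from −0.79 to −0.48, and in R403Q-CD against WT-CD from 0.23 to 0.38. Prkaa2 within cardiomyocyte-like nuclei, its main source, differed by −0.03 (SE 0.17, adjusted p 0.940 by edgeR) between R403Q-EMPA and WT-CD.

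**Figure D4:**
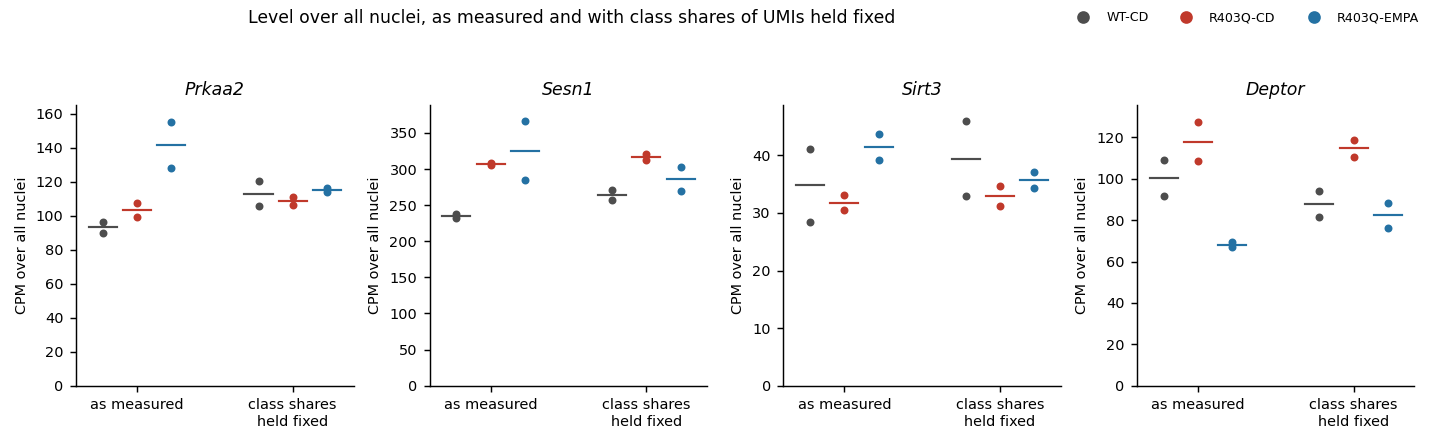
CPM over all nuclei of Prkaa2, Sesn1, Sirt3 and Deptor, as measured and with the class shares of UMIs held fixed, 1 point per library with bars at group means. The R403Q-EMPA libraries lie above WT-CD for Prkaa2 and below it for Deptor as measured, and both genes overlap between these groups once shares are fixed.

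Whether an effect differed between classes was tested as an interaction term in joint fits of 2 classes, for the 3 pairs of cardiomyocyte-like, fibroblast-like and endothelial-like nuclei. Of 90 member tests 0 were called by edgeR at an adjusted p under 0.05, where 0.919% of all gene tests were, and 12 (13.3%) had an unadjusted p under 0.05, beside 10.4%. In R403Q-EMPA against R403Q-CD these were 3, 3 and 2 of 10 members in the 3 pairs, beside 10.1% to 11.4% of all genes. In the other comparisons they were 0 or 1 in each pair, beside 5.41% to 15.0%. For Deptor in R403Q-EMPA against R403Q-CD, cardiomyocyte-like nuclei differed from endothelial-like nuclei by −0.68 (SE 0.24, adjusted p 0.267 by edgeR). Fibroblast-like nuclei differed from endothelial-like nuclei by −0.33 (SE 0.15, adjusted p 0.490 by edgeR). The smallest adjusted p of the 90 tests was that of Sesn3 in R403Q-EMPA against WT-CD, whose log2 fold change in cardiomyocyte-like nuclei was below that in fibroblast-like nuclei by −0.60 (SE 0.18, adjusted p 0.124 by edgeR). For Prkaa2 in the same comparison, fibroblast-like nuclei differed from endothelial-like nuclei by −0.73 (SE 0.23, adjusted p 0.201). The summed cardiomyocyte markers were higher in R403Q-EMPA than in WT-CD on both sides, in endothelial-like nuclei by the values given above and in fibroblast-like nuclei at 1975 and 2065 CPM against 1473 and 1237 CPM, and their part was not tested.

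The other genes of the network were examined in 11 lists of 150 genes, from mTOR complex subunits and the amino acid sensing arm to AMPK substrates, lysosomal genes and FoxO targets. Over the 10 classes, 1 of 1105 list tests gave a call in R403Q-CD against WT-CD, 2 of 1105 in R403Q-EMPA against R403Q-CD and 18 of 1105 in R403Q-EMPA against WT-CD, beside the shares of all gene tests given above. In cardiomyocyte-like nuclei, with 139 list genes tested, the counts were 1, 0 and 9. In fibroblast-like nuclei, with 145 tested, they were 0, 1 and 6, and in endothelial-like nuclei 0 in each comparison. Of all genes, 0.0905%, 0.251% and 4% were called in cardiomyocyte-like nuclei in the 3 comparisons in that order, 0%, 0.372% and 1.21% in fibroblast-like nuclei and 0%, 0.235% and 0.797% in endothelial-like nuclei. By DESeq2 the list counts in cardiomyocyte-like nuclei were 3, 5 and 9 (2.21%, 3.73% and 6.52% of those tested, beside 0.786%, 1.74% and 5.12% of all genes by the same tool), in fibroblast-like nuclei 0, 5 and 8 (0%, 3.45% and 5.48%, beside 0.0364%, 1.69% and 2.61%) and in endothelial-like nuclei 0, 1 and 1 (0%, 0.746% and 0.725%, beside 0.00846%, 0.969% and 1.63%). At an unadjusted p under 0.05 edgeR gave 46, 96 and 138 of the 1105 list tests in the 3 comparisons (4.16%, 8.69% and 12.5%, beside 4.3%, 9.79% and 12.7% of all gene tests). Where 0 were called, it gave 23 of 139 list genes in R403Q-EMPA against R403Q-CD in cardiomyocyte-like nuclei (beside 12.8% of all genes), 5 of 145 in R403Q-CD against WT-CD in fibroblast-like nuclei (beside 3.03%), and 4, 15 and 18 of 143 in endothelial-like nuclei in the 3 comparisons (beside 3.51%, 9.63% and 12.7%). These counts changed when single libraries were left out. Without R403Q-EMPA replicate 1 or 2, 1 list gene was called in cardiomyocyte-like nuclei in R403Q-EMPA against WT-CD, and 3 without R403Q-CD replicate 1 or 2. In fibroblast-like nuclei 0 were called without R403Q-EMPA replicate 1, 1 without either R403Q-CD library and 15 without WT-CD replicate 1.

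Fnip2, a partner of folliculin in the amino acid sensing arm and of AMPK, was called in cardiomyocyte-like nuclei in both comparisons with wild type. It stood at 98.5 and 125 CPM in WT-CD, 391 and 346 CPM in R403Q-CD and 216 and 255 CPM in R403Q-EMPA. All 3 groups were apart, with log2 fold changes of 1.70 (SE 0.21, adjusted p 0.0306 by edgeR's quasi-likelihood test) for R403Q-CD and 0.99 (SE 0.21, adjusted p 0.0334) for R403Q-EMPA. The R403Q-CD call was lost without either R403Q-CD library, where the adjusted p reached 0.178. The R403Q-EMPA call was made in 8 of 13 alternative settings and was lost without any single library other than WT-CD replicate 2, with an adjusted p of up to 0.155. The other 8 calls were all in R403Q-EMPA against WT-CD. Higher were Ddit4, an inhibitor of mTOR complex 1 induced by stress (10.6 and 13.96 CPM against 30.5 and 46.3 CPM, log2 fold change 1.57, SE 0.28), Tbc1d1, an AMPK substrate that governs glucose transporter traffic (1.12, SE 0.26), Bnip3, a mitophagy receptor (1.00, SE 0.22), and Neu1, a lysosomal sialidase (0.95, SE 0.21). Lower were Aldh1l2, a mitochondrial folate enzyme (−1.35, SE 0.26), Pdcd4, an inhibitor of translation (−1.15, SE 0.24), Fbxo32, the muscle ubiquitin ligase atrogin-1 (377 and 351 CPM against 197 and 168 CPM, −1.07, SE 0.19), and Tbc1d7, a subunit of the TSC complex (−1.06, SE 0.22). Their adjusted p lay between 0.0154 and 0.0436. For Bnip3 the R403Q-CD libraries, at 91.7 and 84.3 CPM, also lay above WT-CD, at 36.4 and 51.2 CPM. They overlapped with the R403Q-EMPA libraries, at 85.3 and 100.4 CPM. Over 13 alternative settings these 8 calls were made in 6 (Tbc1d1) to 11 (Ddit4 and Fbxo32), and each was lost when certain libraries were left out. Without R403Q-EMPA replicate 2 all 8 were lost, without R403Q-EMPA replicate 1 all but Ddit4, without either R403Q-CD library those of Tbc1d7, Pdcd4, Tbc1d1, Neu1 and Bnip3, without WT-CD replicate 1 those of Ddit4, Tbc1d7, Pdcd4, Tbc1d1 and Bnip3, and without WT-CD replicate 2 those of Neu1 and Aldh1l2. The Tbc1d1 call was also lost without the mitochondrial filter, where the log2 fold change was 0.41, and with predicted doublets kept, that of Tbc1d7 with doublets kept and that of Neu1 by DESeq2.

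In fibroblast-like nuclei Nmnat3, an NAD-synthesising enzyme of mitochondria, was called in both comparisons of R403Q-EMPA. It stood at 47.4 and 56.8 CPM in WT-CD, 57.6 and 56.8 CPM in R403Q-CD and 27.9 and 29.5 CPM in R403Q-EMPA, with log2 fold changes of −1.04 (SE 0.16, adjusted p 0.0436 by edgeR's quasi-likelihood test) against R403Q-CD and −0.91 (SE 0.16, adjusted p 0.0374) against WT-CD. Prkab2, which encodes the AMPK beta 2 subunit, stood at 35.4 and 38.4 CPM in WT-CD, 42.1 and 41.7 CPM in R403Q-CD and 83.3 and 62.6 CPM in R403Q-EMPA (0.94, SE 0.16, adjusted p 0.0357 against WT-CD). Also called against WT-CD were Ddit4 (1.38, SE 0.18), the stress factor gene Ddit3 (1.12, SE 0.21) and the FoxO target Ccng2 (1.03, SE 0.17), which were higher, and Slc7a11, the cystine transporter (−1.01, SE 0.15), which was lower, with adjusted p between 0.0167 and 0.0421. The calls of Nmnat3 and Ddit3 were lost without the mitochondrial filter, and all those of this class without R403Q-EMPA replicate 1. All but that of Ddit4 were lost without either R403Q-CD library, and those of Nmnat3 against WT-CD and Ddit3 also without R403Q-EMPA replicate 2. The symbol Ddit3 occurs on 2 rows of the matrices, and the row with the identifier ENSMUSG00000025408 was used.

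Single calls came from 3 smaller classes. In endocardial-like nuclei Nmnat2, a cytosolic NAD-synthesising enzyme, was higher in R403Q-EMPA than in WT-CD (2.74, SE 0.43, adjusted p 0.00898 by edgeR), on 118 UMIs in all, and the call was lost without R403Q-EMPA replicate 1 (adjusted p 0.0650). In epicardial-like nuclei, 27 to 71 per library, Cd38, which consumes NAD, rests on 158 UMIs in all. It was lower in R403Q-EMPA than in R403Q-CD (−2.69, SE 0.48, adjusted p 0.0180 by edgeR) and than in WT-CD (−2.30, SE 0.48, adjusted p 0.0328). DESeq2 called Cd38 in neither, and the calls were lost without R403Q-EMPA replicate 1, that against WT-CD also without WT-CD replicate 1. In myeloid-like nuclei Ddit4 was higher in R403Q-EMPA than in WT-CD (2.22, SE 0.39, adjusted p 0.0265). This last call was lost without the mitochondrial filter, without either R403Q-EMPA library and without WT-CD replicate 1, with an adjusted p of up to 0.135.

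**Figure D5:**
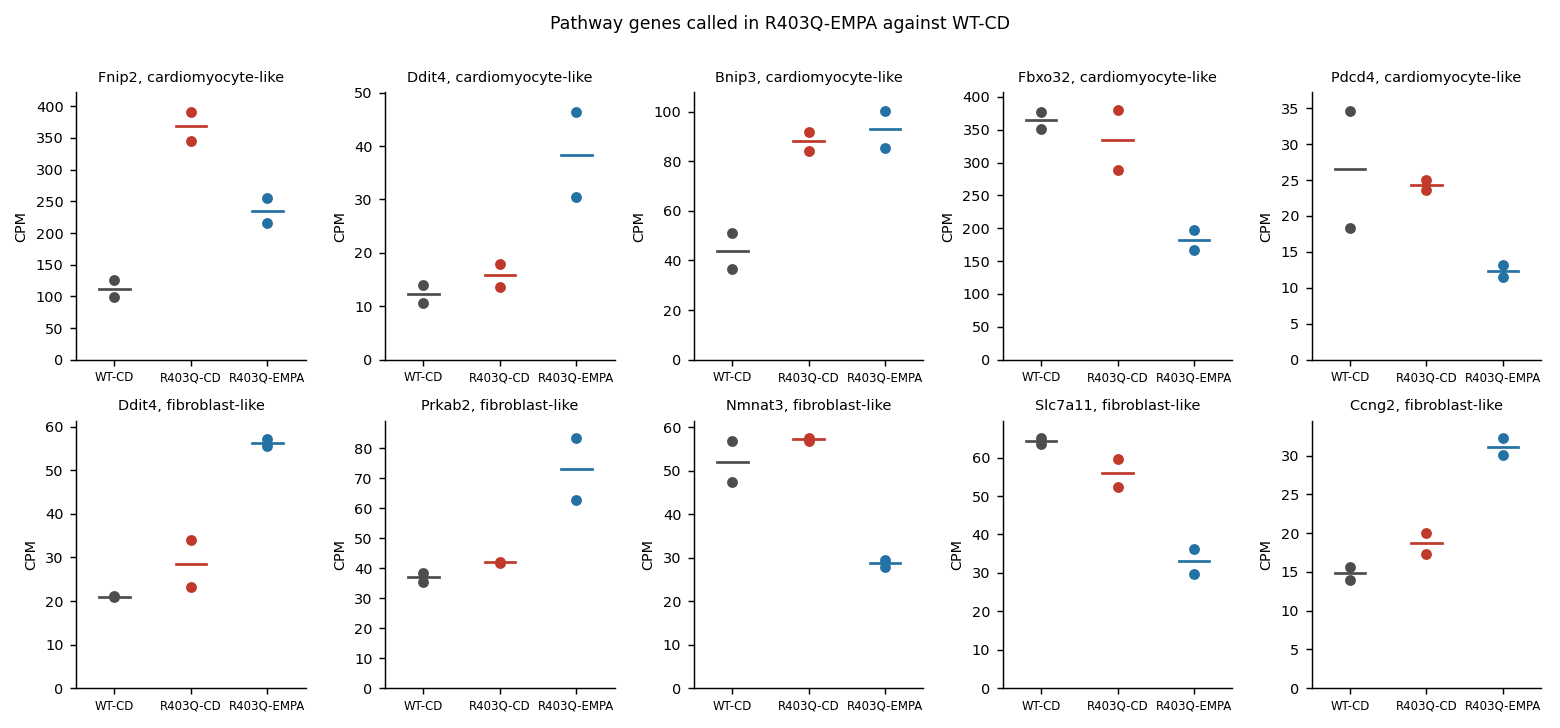
CPM (vertical axes, from 0) of 5 called list genes in cardiomyocyte-like and 5 in fibroblast-like nuclei, 1 point per library with bars at group means. For each gene the R403Q-EMPA libraries do not overlap with WT-CD, and Fnip2 is highest in R403Q-CD, at 391 and 346 CPM.

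The genes whose log2 CPM ran most nearly parallel to a member were sought over the 60 sums of class and library, among 19023 genes. These points share libraries, and the correlations are a description. For Deptor the closest was Nav1 (Pearson r = 0.884), for Sesn1 Smg1 (0.887), Got1 (0.870) and Nrap (0.837), and for Prkaa2 Dnajb4 (0.837), Pcdh7 (0.827) and Dmpk (0.825). For Prkaa1 it was Rigi (0.836), for Sesn3 Gm56906 (0.837) and for Sirt3 Gm10435 (0.845). The even members had weaker matches, 0.771 for Tfeb, 0.689 for Sirt1, 0.678 for Rptor and 0.5002 for Mtor.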

How the data were processed

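Single-nucleus libraries had been made from left ventricle with the 10x Genomics system. Per the labels and the submitters' processing notes, reads were counted with Cell Ranger 8.0.1 on GRCm39, and the authors deposited unnormalised UMI counts per gene and barcode for each of the 6 libraries. Replicate numbers follow accession order and pair no samples.

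Nuclei with at least 500 UMIs, at least 300 genes and at most 5% mitochondrial UMIs were kept, and predicted doublets were removed (scanpy 1.11.5 on Python 3.11.15). Clusters were made on 2000 variable genes, 30 components and 15 neighbours by Leiden at resolution 1, with the members and list genes left out, and named from at least 3 markers at 2-fold or more in at least 10% of nuclei. Counts of each class were added up within a library and fitted with all 6 libraries by edgeR 4.0.16 in R 4.3.3 (filterByExpr, TMM scaling, quasi-likelihood test, 3 residual degrees of freedom, Benjamini-Hochberg over all genes of a class). Printed CPM use raw class totals. The code was tested on simulated data.

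Members and lists were chosen with earlier results of these data known. Named genes were all members, with statistics where the unadjusted p was under 0.05 or groups did not overlap in the 3 largest classes, and called list genes, at most 6 a list. Alternatives were DESeq2 1.42.0, RLE scaling, no filter on low counts, no mitochondrial filter, doublets kept, Leiden resolution 0.5, members allowed among variable genes, and each library left out. Promoters came from RefSeq tables of GRCm38.p6, matched by symbol.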

Additional observations from a re-analysis of the deposited data

Results flagged for a closer look

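In 5 cases both libraries of a group lay above the other group in 1 class and below it in another, in the 3 largest classes. How many of all genes do the same is not given here. Over the 10 classes the groups did not overlap in 45.1% of all gene tests in R403Q-EMPA against R403Q-CD and in 40.1% in R403Q-EMPA against WT-CD. This opposite order is not itself a test, so the interaction term of a joint edgeR fit of the classes is given beside each, and 0 passed at an adjusted p under 0.05. In R403Q-EMPA against R403Q-CD, the log2 fold change of Prkaa1 was 0.10 in endothelial-like and −0.15 in fibroblast-like nuclei (difference of fibroblast-like from endothelial-like −0.28, SE 0.16, adjusted p 0.615). That of Prkaa2 was 0.057 in cardiomyocyte-like and −0.33 in fibroblast-like nuclei (difference 0.35, SE 0.15, adjusted p 0.402). That of Sesn1 was −0.31 in cardiomyocyte-like and 0.086 in fibroblast-like nuclei (difference −0.44, SE 0.16, adjusted p 0.298). That of Sesn3 was −0.40 in cardiomyocyte-like, 0.34 in endothelial-like and 0.11 in fibroblast-like nuclei, and the cardiomyocyte-like value differed from the endothelial-like one by −0.73 (SE 0.25, adjusted p 0.267) and from the fibroblast-like one by −0.54 (SE 0.18, adjusted p 0.246). In R403Q-EMPA against WT-CD, Sesn3 was −0.46 in cardiomyocyte-like and 0.13 in fibroblast-like nuclei (difference −0.60, SE 0.18, adjusted p 0.124). Cardiomyocyte-like Sesn3 rests on 855 UMIs over the 6 libraries.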

How the results depend on the processing

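With all 6 libraries, members called in the 10 classes numbered 0 in each comparison, except 2 without a filter on low counts in R403Q-EMPA against R403Q-CD (Deptor in cardiomyocyte-like and fibroblast-like nuclei). In that setting and comparison 2.8% of all genes were called in cardiomyocyte-like and 4.03% in fibroblast-like nuclei. Over all nuclei, DESeq2 called 1 member in each comparison of R403Q-EMPA, Deptor against R403Q-CD and Prkaa2 against WT-CD, and Prkaa2 was also the 1 call without the mitochondrial filter against WT-CD. The share of all genes that these settings called over all nuclei is not given here, so these calls cannot be set against it. With a library left out, interaction calls of members were not 0 in every fit, and the share of all gene tests called in those fits is not given here. Sirt1 in endothelial-like nuclei, R403Q-EMPA against WT-CD, ran from −0.014 without WT-CD replicate 1, a change of direction, to 0.20 without WT-CD replicate 2. List genes called in cardiomyocyte-like nuclei in R403Q-CD against WT-CD numbered 3 by DESeq2, 3 without the low-count filter, 7 without the mitochondrial filter and 0 to 2 with a library left out, where 0.786%, 1.29%, 3.25% and 0% to 0.191% of all genes were called in the same settings. In R403Q-EMPA against R403Q-CD they numbered 5 by DESeq2, 13 without the low-count filter and 0 to 4 with a library left out (of all genes 1.74%, 2.8% and 0% to 1.21%), and against WT-CD 16 and 1 to 13 for the last 2 settings (5.8% and 0.831% to 5.88%). In fibroblast-like nuclei, R403Q-EMPA against R403Q-CD gave 5 by DESeq2, 2 by RLE, 14 without the low-count filter, 0 without the mitochondrial filter and 0 to 7 with a library left out (of all genes 1.69%, 0.584%, 4.03%, 0.14% and 0% to 1.89%), and against WT-CD 13 without the low-count filter and 0 to 15 with a library left out (4.47% and 0.141% to 3.74%). In endothelial-like nuclei DESeq2 gave 1 in each comparison of R403Q-EMPA, no low-count filter 3 against R403Q-CD and 4 against WT-CD, and a library left out 0 to 3 against WT-CD (of all genes 0.969% and 1.63%, 2.12% and 3.21%, and 0.0898% to 3.8%). The causes were not tested. With a library left out, the lone library of its group is assumed to vary like the others. No paired analysis was possible because the replicate numbers follow accession order only. With 2 libraries a group, small differences were not detectable, and classes under 250 nuclei gave few UMIs per gene.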
